A study of Mus musculus with 8 samples.

Results

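The genes described here form the path from the insulin receptor to the FoxO transcription factors in the mouse tibialis anterior, which lies in the lower leg and consists mainly of fast-twitch fibres. They were chosen by name, as the transcript clusters of the array whose single annotated symbol was 1 of 10 pathway genes, and 8 of the 10 had such a cluster: Insr, Irs1, Grb10, Grb14, Pik3r1, Akt1, Foxo1 and Foxo3. Each of the 8 had 1 cluster, so no choice between clusters was needed, and Irs2 and Akt2 were not analysed here. The 8 genes were set against 16755 transcript clusters in all, of which those with 1 symbol stood for 14860 genes. The tissue came from male mice aged 8 weeks that had either gone 24 h without food or eaten freely. Each array held RNA pooled from 3 mice, and the work was carried out in 4 experiments, each with 1 fasted and 1 fed pool, so 4 fasted arrays were compared with 4 fed arrays. The strain is not given in the sources used here, and pooling hides the spread between single mice.

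As background, insulin binds its receptor, a tyrosine kinase, which phosphorylates the insulin receptor substrate proteins. These recruit phosphatidylinositol 3-kinase, whose lipid product brings the kinase Akt to the membrane, and active Akt phosphorylates FoxO factors and keeps them out of the nucleus. When insulin is low, as in fasting, FoxO factors act in muscle nuclei on genes of protein breakdown, autophagy and fat use. The adaptor proteins Grb10 and Grb14 bind the activated receptor and restrain it.

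All values are log2 expression values as the authors deposited them, so a difference of 1 means a 2-fold change. Differences are fasted minus fed with their standard error (SE), taken from a limma fit that compared pools within experiments, and p-values were adjusted by the Benjamini-Hochberg method over all 16755 clusters. A gene is said to have risen or fallen only where that adjusted p was under 0.05. The array medians lay between 5.76 and 5.91, correlations between arrays across clusters between 0.957 and 0.980, and the median difference over all clusters was -0.02. With only 8 arrays precision was limited, and the median SE over clusters was 0.12. Signal over background was not available, so a low level may include background. Of 9 measured skeletal muscle fibre markers none passed the test or had an unadjusted p under 0.05. The differences of all 9 markers lay below 0, between -0.14 and -0.01. The log2 of their summed levels, in which the brightest genes weigh most, lay between 14.76 and 15.05 in fasted and between 14.84 and 15.12 in fed arrays. The troponin gene Tnnt3, the actin gene Acta1 and the muscle creatine kinase gene Ckm were among them, and the myosin heavy chain genes of that list were not analysed here. Of 4 measured slow fibre markers none passed, and the log2 of their summed levels varied more between arrays. It lay between 9.43 and 10.90 in fasted and between 9.40 and 10.97 in fed arrays.

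Fasting went with less mRNA of Grb14, the adaptor that holds back the insulin receptor, and this was the only one of the 8 genes to pass the test. Over all clusters 0.818% passed, 0.531% as higher and 0.286% as lower in fasted muscle. Among the 7 genes that did not pass, Insr had the smallest adjusted p. The differences of the 8 genes ran from -0.72 for Grb14 to 0.58 for Insr. Their median was 0.19, and 5 of the 8 were above 0, against 45.6% of all clusters.

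**Figure D1:**
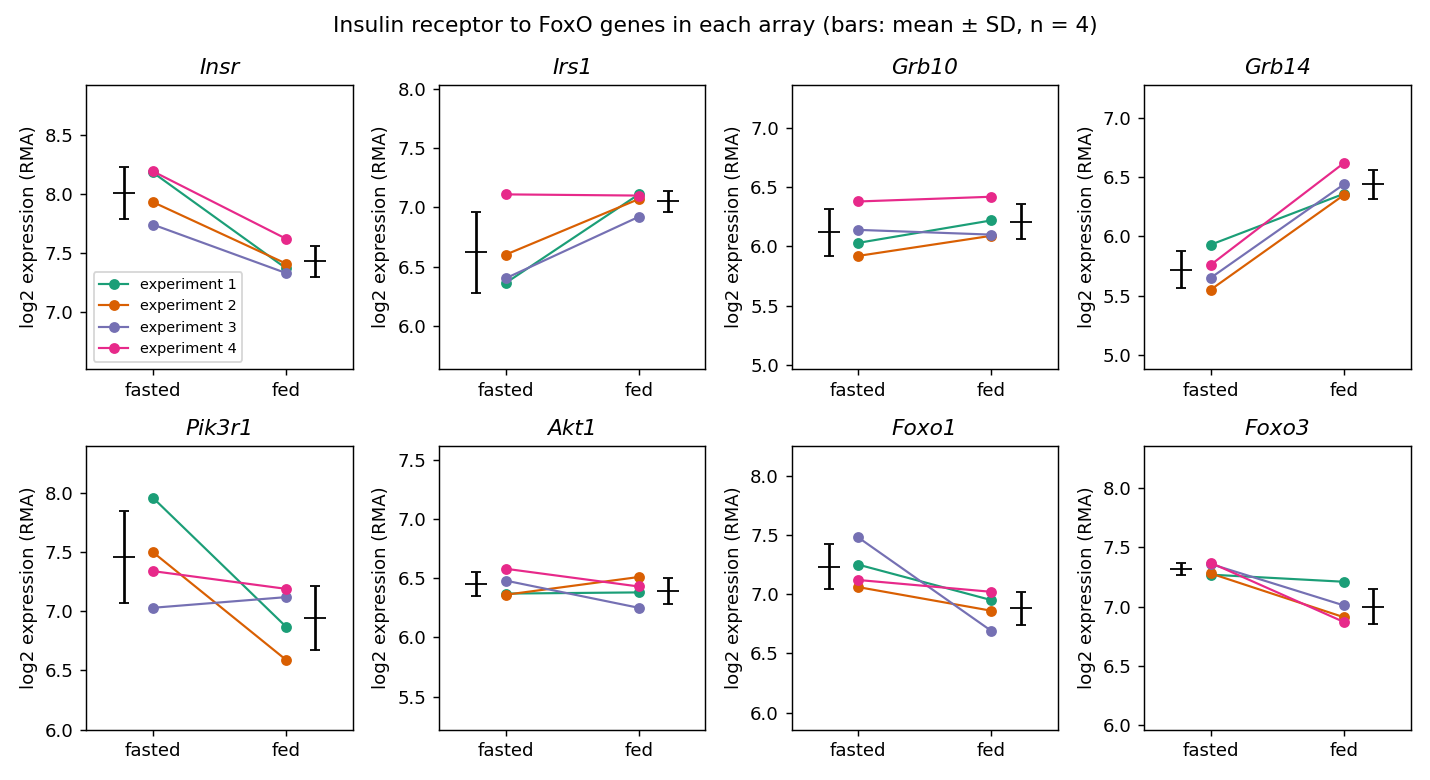
Log2 expression (vertical axes, each spanning the same width) of the 8 genes in every array, with fasted pools at the left and fed pools at the right of each panel; coloured lines join the pools of an experiment and black bars give the mean ± SD of 4 pools. All 4 lines of Insr are higher at their fasted end and all 4 of Grb14 are lower there, while the ends of Akt1 and Grb10 lie within 0.23 of each other.

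Insr encodes the receptor itself (transcript cluster 6980052). Its level in experiments 1 to 4 was 8.18, 7.93, 7.74 and 8.19 in fasted pools, against 7.37, 7.41, 7.33 and 7.62 in fed pools. Every fasted pool lay above every fed pool, and the lowest fasted value, in experiment 3, was close to the highest fed value, in experiment 4. The mean was 8.01 ± 0.22 in fasted and 7.43 ± 0.13 in fed muscle (SD, n = 4 each). The difference was 0.58 ± 0.11 (SE), with a 95% interval of 0.32 to 0.84, or 1.49-fold, and it did not pass over all clusters (limma adjusted p = 0.0743). Within the experiments it was 0.82, 0.52, 0.41 and 0.57. Insr passed in 5 of 12 alternative settings, among them quantile normalization (adjusted p = 0.0391) and the fit without the dimmest 25% of clusters (adjusted p = 0.0332).

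By the gap between the 4 within-experiment differences, taken as a root mean square, the genes most like Insr among 14859 others were Ezh1 at 0.06, Eci2 at 0.08 and Ube4b at 0.09. Ezh1 encodes a histone methyltransferase of Polycomb complexes, Eci2 an isomerase of fatty acid oxidation and Ube4b a ubiquitin ligase. Their differences were 0.53 ± 0.11 for Ezh1, 0.62 ± 0.11 for Eci2 and 0.57 ± 0.12 for Ube4b, with limma adjusted p of 0.104, 0.0568 and 0.0949.

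Irs1 encodes a docking protein that the receptor phosphorylates (cluster 6760177). Its level in experiments 1 to 4 was 6.36, 6.60, 6.40 and 7.11 in fasted pools, against 7.11, 7.07, 6.92 and 7.10 in fed pools. The fasted pools of experiments 1 to 3 lay below all fed pools, and that of experiment 4 lay at the level of the highest fed pool, so the groups overlapped. The difference was -0.44 ± 0.14, with a 95% interval of -0.76 to -0.11, and did not pass (limma adjusted p = 0.277). It was -0.75, -0.48 and -0.52 in experiments 1 to 3 and 0.01 in experiment 4. Insr and Irs1, neighbours in the pathway, thus had differences of opposite sign in 3 of the 4 experiments, though neither passed.

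Grb14 (cluster 6887282) and Grb10 (cluster 6786046) encode related adaptors. Grb14 was at 5.93, 5.55, 5.65 and 5.76 in the fasted pools of experiments 1 to 4, against 6.36, 6.35, 6.44 and 6.62 in the fed pools. No fasted pool reached the lowest fed pool, and the gap was narrowest in experiment 1. The mean was 5.72 ± 0.16 in fasted and 6.44 ± 0.12 in fed muscle (SD, n = 4 each). Grb14 fell by 0.72 ± 0.12 (SE) on the log2 scale, with a 95% interval of -0.99 to -0.45, so the level in fasted muscle was 0.607 times that in fed muscle (limma adjusted p = 0.0411). The fall was seen in 4 of 4 experiments, with differences of -0.43, -0.80, -0.79 and -0.85. The fasted levels lay around the array medians, so part of the signal may be background.

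The call of Grb14 was close to the threshold. Without experiments 1, 2, 3 and 4 in turn the limma adjusted p was 0.0737, 0.199, 0.0883 and 0.193, while the difference ran only from -0.82 to -0.68. Quantile normalization gave an adjusted p of 0.0527, centring each array on its median 0.0976 and the paired test without moderation 0.294. Without the experiment block it was 0.0132.

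The genes most like Grb14 by the same measure were Ston2 at 0.06, Sobp at 0.09 and Bhlhe40 at 0.10, and all 3 fell. They were picked for differences close to those of Grb14, so a similar size and direction follow from the choice. Ston2, an adaptor of vesicle endocytosis, fell by 0.71 ± 0.11 (limma adjusted p = 0.0356). Sobp fell by 0.73 ± 0.11 (adjusted p = 0.0330), and Bhlhe40, a transcriptional repressor of the clock, by 0.78 ± 0.12 (adjusted p = 0.0337). These 3 calls, like that of Grb14, ended without any one of the experiments, after centring on the array medians and in the paired test without moderation; that of Ston2 also ended without the experiment block (adjusted p = 0.0957) and with experiment as a random block (0.0709).

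Grb10, which like Grb14 binds the receptor and is also a substrate of mTORC1, was at 6.03, 5.92, 6.14 and 6.38 in fasted pools, against 6.22, 6.09, 6.10 and 6.42 in fed pools. The groups overlapped, although the fasted pools of experiments 1 and 2 lay below every fed pool, and experiment 4 had the highest level in both groups. The difference was -0.09 ± 0.10, with a 95% interval of -0.33 to 0.15 (limma adjusted p = 0.875). Whether Grb10 and Grb14 differed in their response was not tested.

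**Figure D2:**
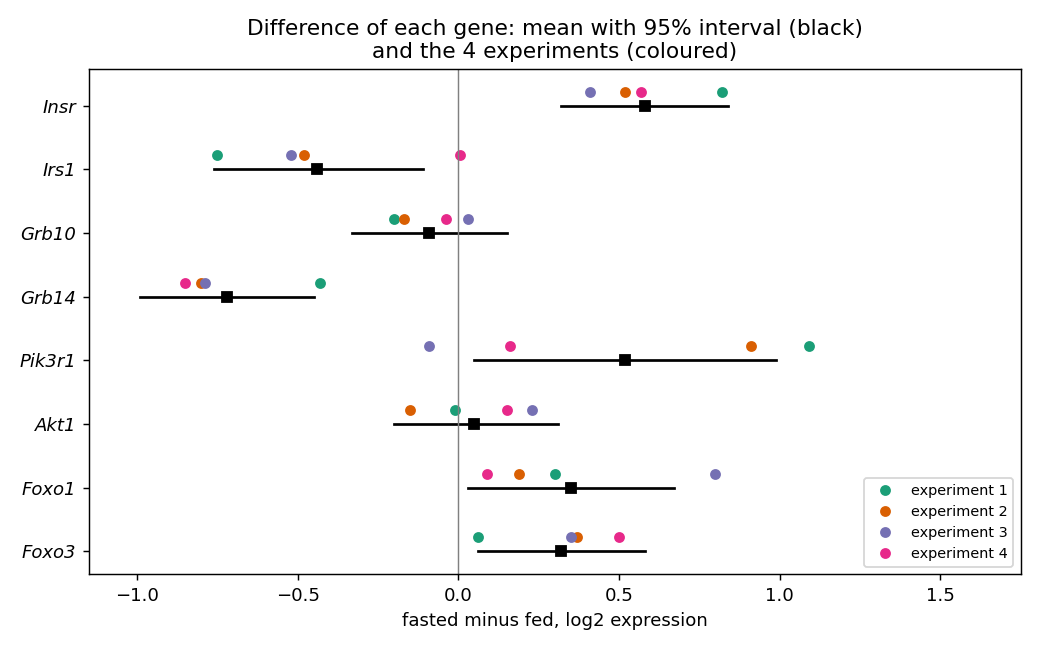
Fasted minus fed log2 expression (horizontal axis) of the 8 genes, ordered from the receptor to the FoxO factors; black squares and lines are the fitted difference and its 95% interval, and coloured points are the 4 experiments. The intervals of Grb10 (-0.33 to 0.15) and Akt1 (-0.20 to 0.31) hold 0, and the points of Pik3r1 spread most, from -0.09 to 1.09.

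Pik3r1 encodes a regulatory subunit that ties phosphatidylinositol 3-kinase to Irs1 (cluster 6815599). Its level in experiments 1 to 4 was 7.96, 7.50, 7.03 and 7.34 in fasted pools, against 6.87, 6.59, 7.12 and 7.19 in fed pools. Fasted pools were far above fed pools in experiments 1 and 2 and close to them in experiments 3 and 4, so the groups overlapped. The differences were 1.09, 0.91, -0.09 and 0.16, with a mean of 0.52 ± 0.20 and a 95% interval of 0.05 to 0.99 (limma adjusted p = 0.389). This SE was the largest among the 8 genes. The difference was 0.33 without experiment 1 and 0.72 without experiment 3, and neither passed.

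Akt1 encodes a kinase activated downstream of phosphatidylinositol 3-kinase (cluster 6803895). It was at 6.37, 6.36, 6.48 and 6.58 in fasted pools, against 6.38, 6.51, 6.25 and 6.43 in fed pools. The groups overlapped, with the highest level in a fasted pool and the lowest in a fed pool. The difference was 0.05 ± 0.11, with a 95% interval of -0.20 to 0.31 (limma adjusted p = 0.955), above 0 in 2 and below 0 in 2 experiments. That interval corresponds to levels in fasted muscle between 0.868 and 1.24 times those in fed muscle.

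Foxo1 (cluster 6897441) and Foxo3 (cluster 6773545) encode the FoxO factors studied most in muscle wasting. Foxo1 was at 7.25, 7.06, 7.48 and 7.12 in fasted pools, against 6.95, 6.86, 6.69 and 7.02 in fed pools. The groups did not overlap, but the lowest fasted pool, in experiment 2, was just above the highest fed pool, in experiment 4. The difference was 0.35 ± 0.14, with a 95% interval of 0.03 to 0.67, and did not pass (limma adjusted p = 0.399). Experiment 3 had the largest difference, 0.80, against 0.30, 0.19 and 0.09 in experiments 1, 2 and 4. Without experiment 3 the difference was 0.20, which is smaller by over 1.5 times.

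Foxo3 was at 7.27, 7.28, 7.36 and 7.37 in fasted pools, against 7.21, 6.91, 7.01 and 6.87 in fed pools. The fasted pools were close together and all above the fed pools, of which that of experiment 1 came nearest. The mean was 7.32 ± 0.05 in fasted and 7.00 ± 0.15 in fed muscle (SD, n = 4 each). The difference was 0.32 ± 0.11, with a 95% interval of 0.06 to 0.58, or 1.25-fold, and did not pass (limma adjusted p = 0.338). It was 0.06, 0.37, 0.35 and 0.50 in experiments 1 to 4.

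Read as a group, the fasted and fed arrays did not overlap for 4 of the 8 genes, Insr, Foxo1 and Foxo3 higher and Grb14 lower in fasted muscle. Over all clusters such a separation was seen in 6.77%, with 3.55% higher and 3.22% lower in fasted muscle. An unadjusted p under 0.05 was reached by 6 of the 8, namely Insr, Pik3r1, Foxo1 and Foxo3 above 0 and Irs1 and Grb14 below 0, against 10.9% of all clusters, 5.15% above 0 and 5.79% below. These shares describe 8 genes chosen with earlier results of these arrays known, and no test was made of the group. Differences went in the same direction in 4 of 4 experiments for Insr, Grb14, Foxo1 and Foxo3, against 18.7% of all clusters, 8.61% upward and 10.1% downward. The experiments did not rank the genes alike: experiment 1 had the largest difference of Insr and Pik3r1 and the smallest of Grb14 and Foxo3.

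The letters upstream of these genes were read for 7 of the 8 from RefSeq (GRCm38.p6), as the 250 bases before each annotated start, 10 windows in all. Insr had no entry. The core letters bound by FoxO factors (GTAAACA), the E-box of helix-loop-helix factors (CACGTG) and the full palindrome bound by the glucocorticoid receptor were searched on both strands, and the matches did not overlap. The window of Grb14 is shown because Grb14 was the gene that fell, that of Irs1 because it held an E-box, and the upstream start of Akt1 because it held the only FoxO match. Capitals mark the matched letters, on either strand.
Grb14, chr2:65022767-65023016, minus strand: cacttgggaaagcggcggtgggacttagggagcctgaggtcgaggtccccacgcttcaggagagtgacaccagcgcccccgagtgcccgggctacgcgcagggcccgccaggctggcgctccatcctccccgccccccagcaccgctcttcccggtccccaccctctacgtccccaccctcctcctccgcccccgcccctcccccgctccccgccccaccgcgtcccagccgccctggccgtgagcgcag
Irs1, chr1:82291440-82291689, minus strand: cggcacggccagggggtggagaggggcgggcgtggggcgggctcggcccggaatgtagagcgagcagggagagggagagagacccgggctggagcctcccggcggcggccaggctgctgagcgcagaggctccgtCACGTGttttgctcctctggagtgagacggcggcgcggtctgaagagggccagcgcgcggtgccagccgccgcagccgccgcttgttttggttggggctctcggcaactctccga
Akt1, chr12:112674885-112675134, minus strand: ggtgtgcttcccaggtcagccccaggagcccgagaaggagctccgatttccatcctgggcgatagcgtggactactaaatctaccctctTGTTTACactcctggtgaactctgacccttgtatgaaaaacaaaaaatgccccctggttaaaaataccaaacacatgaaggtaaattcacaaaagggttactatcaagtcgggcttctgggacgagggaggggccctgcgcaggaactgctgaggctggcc

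The Grb14 window held none of the 3 motifs. Of its bases 75.2% were G or C, against a median of 52.4% over the windows of all genes. Over the 10 windows that share ran from 42.4% to 81.2%. The FoxO letters were found in 1 of the 10 windows, against 3.17% of 32851 windows of all genes. That window belonged to the upstream start of Akt1, and the window of its other start held no match. Which start is used in this muscle was not tested. The E-box was found in 1 window, that of Irs1, against 6.02% of all windows, and the glucocorticoid palindrome in none, against 0.00913%. A match is a description of the letters, and motifs outside these windows were not searched.

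The rest of the pathway was read through 6 lists. In the 5 lists of signalling genes none of 95 measured genes passed the limma test. None passed the paired test without moderation, but that test called almost no cluster at all, so this adds little. In 3 of the 12 alternative settings 1 gene, Socs2, passed. An unadjusted p under 0.05 was reached by 12 of the 95, 6 above 0 and 6 below, which is 12.6% and close to the 10.9% of all clusters. Among 17 receptor family genes and proximal adaptors the median difference was -0.00094. Igf1r, the receptor for insulin-like growth factors, was at 6.68, 6.69, 6.71 and 6.79 in fasted pools, against 6.37, 6.20, 6.33 and 6.36 in fed pools. Each fasted pool was above every fed pool, with a difference of 0.40 ± 0.10 (limma adjusted p = 0.171). The docking protein gene Gab1 was at 0.32 ± 0.14, and at 0.16 without experiment 1, where its difference was 0.79. Dok1 was at -0.18 ± 0.11, and at -0.11 without experiment 2. The 9 measured subunits of phosphatidylinositol 3-kinases had a median of 0.05 and lay between -0.22 and 0.23. The catalytic subunit genes Pik3ca (0.23 ± 0.12), Pik3c3 (0.23 ± 0.12) and Pik3cd (-0.20 ± 0.11) had the smallest p among them. Without experiment 1 Pik3ca was at 0.14, and without experiment 2 Pik3c3 was at 0.14.

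None of the other brakes on the pathway passed the test in the reported fit. Of 28 measured, 11 lay above 0 and 17 below, with a median of -0.01. Socs2, a suppressor of cytokine signalling, had the lowest difference, -0.58 ± 0.11 (limma adjusted p = 0.0807). It passed without the dimmest 25% of clusters (adjusted p = 0.0362), with a trended and robust prior (0.0455) and with array weights (0.0498), and in none of the other 9 settings, where the adjusted p reached 0.345. It was at 6.44, 7.46, 7.04 and 6.65 in fasted pools, against 7.15, 7.77, 7.73 and 7.23 in fed pools. Socs2 varied more between experiments than between fasted and fed pools, and it was lower in the fasted pool in 4 of 4 experiments. The phosphatase subunit gene Ppp2ca was at 0.39 ± 0.11 and Socs7 at -0.34 ± 0.11.

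Among 21 measured genes of a list of kinases upstream of Akt, Akt substrates and other genes linked to Akt, the median was 0.03. Gsk3b, a kinase of glycogen synthase that Akt inhibits, was at 8.85, 8.75, 8.46 and 8.76 in fasted pools, against 7.93, 8.33, 8.20 and 8.41 in fed pools. These groups did not overlap, and the difference of 0.49 ± 0.13 did not pass (limma adjusted p = 0.200). The kinase gene Sgk3 was at 0.44 ± 0.13 and Mapkap1, of the mTORC2 complex that phosphorylates Akt, at -0.32 ± 0.11. In the list of 20 FoxO relatives and regulators, with a median of -0.01, the coactivator gene Ppargc1a was at -0.39 ± 0.13, the kinase gene Nlk at -0.30 ± 0.10 and the ubiquitin ligase gene Mdm2 at 0.22 ± 0.13. Mdm2 was at 0.10 without experiment 1 and at 0.33 without experiment 3. The other FoxO genes were at 0.13 for Foxo4 and -0.12 for Foxo6.

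Known FoxO target genes were the part of the pathway where most genes passed. Of 38 measured, 10 rose and 1 fell, against 0.531% and 0.286% of all clusters, and 27 did not pass. The median was 0.38, against -0.02 over all clusters. This list was chosen with results of these arrays known, so the share that passed, the median and the direction are not independent evidence. Fbxo32, the muscle ubiquitin ligase atrogin-1, rose by 2.13 ± 0.13 and averaged 10.10 ± 0.12 in fasted and 7.97 ± 0.23 in fed pools (SD, n = 4 each). Every fasted pool was above every fed pool. In the same arrays the differences of Foxo1 and Foxo3, which did not pass, were 0.35 and 0.32. Pdk4, which restrains glucose oxidation, rose by 1.91 ± 0.11, the cell cycle inhibitor gene Cdkn1a by 1.76 ± 0.11 and the sestrin gene Sesn1 by 1.51 ± 0.14. The stress gene Gadd45a rose by 1.21 ± 0.11, the autophagy gene Gabarapl1 by 1.18 ± 0.11 and Pnpla2, a triglyceride lipase, by 1.06 ± 0.13.

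The other targets that rose were Rbl2, a pocket protein of the cell cycle, by 1.10 ± 0.15 (limma adjusted p = 0.0268), the ubiquitin ligase gene Fbxo30 by 0.90 ± 0.13 (adjusted p = 0.0330) and the catalase gene Cat by 0.85 ± 0.11 (adjusted p = 0.0226). Bcl6, a transcriptional repressor, fell by 0.93 ± 0.12 (adjusted p = 0.0250) and was at 6.97, 6.96, 6.38 and 7.45 in fasted pools, against 7.77, 7.81, 7.67 and 8.21 in fed pools. No fasted pool reached a fed pool. In other cells FoxO factors are known to raise Bcl6. Most of these targets also respond to other factors, and FoxO activity itself was not measured.

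Fewer target genes passed when any 1 experiment was left out, and each such refit also has fewer arrays. Leaving out experiments 1, 2, 3 and 4 in turn gave 5, 7, 10 and 6 such genes, against 11 with all experiments. Over all clusters these refits gave 16, 37, 94 and 31 calls, against 137. Whether the lost calls came from the experiment left out or from the fewer arrays was not tested. Fbxo32, Pdk4, Cdkn1a, Sesn1 and Gadd45a passed in each of these 4 refits. Rbl2, Cat, Bcl6 and Fbxo30 were lost without experiment 1, without experiment 2 and without experiment 4, Fbxo30 also without experiment 3 (adjusted p = 0.0608), Pnpla2 without experiment 1 or 4 and Gabarapl1 without experiment 1 (adjusted p = 0.0522). Centring each array on its median ended the calls of Pnpla2, Cat, Bcl6, Rbl2 and Fbxo30, with adjusted p between 0.0529 and 0.0760. In the paired test without moderation none of the 38 passed, 22 had an unadjusted p under 0.05, and the adjusted p was 0.193 for Fbxo32, 0.123 for Pdk4 and 0.123 for Cdkn1a. That test called almost no cluster at all, and its counts over all clusters are in the closing section.

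**Figure D3:**
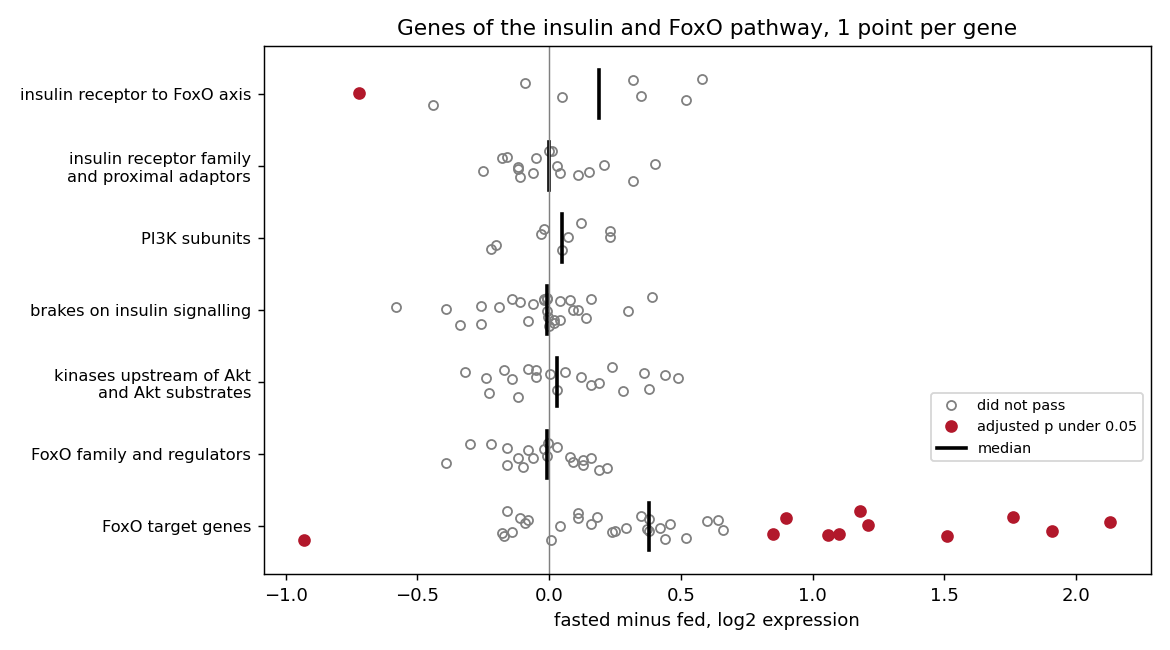
Fasted minus fed log2 expression (horizontal axis) of each measured gene of the axis and of 6 pathway lists, 1 point per gene, with list medians as black bars and genes past an adjusted p of 0.05 filled red. Red points lie in the FoxO target list (10 right and 1 left of 0) and at Grb14 (-0.72), and the medians of the 5 signalling lists lie between -0.01 and 0.05.

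The muscle holds other cells, and in pooled tissue fewer cells of a type and less RNA per cell cannot be told apart. None of the markers of endothelial cells (7 measured), adipocytes (6), macrophages (6), fibroblasts (5) or satellite cells (5) passed the limma test. None passed the paired test without moderation, which called almost no cluster at all. Of these 29, 8 had an unadjusted limma p under 0.05, 5 above 0 and 3 below, which is 27.6% against 10.9% of all clusters. The log2 of the summed levels of the endothelial markers lay between 9.76 and 10.26 in fasted and between 9.74 and 10.12 in fed arrays. For the adipocyte markers it lay between 8.97 and 9.16 in fasted and between 8.83 and 9.18 in fed arrays. For the fibroblast markers it lay between 10.76 and 11.29 in fasted and between 10.77 and 11.22 in fed arrays. For the macrophage markers it lay between 8.54 and 8.87 in fasted and between 8.39 and 8.82 in fed arrays. The marker with the largest difference was the fibroblast gene Lum, which encodes a proteoglycan that binds collagen. Lum was at 7.24, 6.63, 6.39 and 6.82 in fasted pools, against 7.84, 7.28, 8.14 and 7.60 in fed pools. Its groups did not overlap, and the difference of -0.95 ± 0.19 (limma adjusted p = 0.0899) was larger in size than that of Grb14. Lum passed in 3 of the 12 alternative settings, namely with array weights, with a random block for experiment and after the dimmest 25% of clusters were dropped. The collagen genes Col1a1 (-0.39 ± 0.13) and Col3a1 (-0.30 ± 0.13) were also lower in the fasted pool in 4 of 4 experiments, while Pdgfra was at 0.29 ± 0.11 and Dcn, whose level was the highest of the 5 and weighed most in the sum, at 0.14 ± 0.14. The median over the fibroblast list was -0.30. Markers also differed in sign within the endothelial list, with Kdr at -0.48, Cldn5 at 0.44 and Pecam1 at 0.34. There 5 markers lay above 0 and 2 below. In the macrophage list 5 lay above 0, with Cd68 at 0.27, and 1 below. The adipocyte marker Fabp4 was at 0.38, and its list had 3 markers above 0 and 3 below. The part of these cells in the differences of Insr and Grb14 was not tested.

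**Figure D4:**
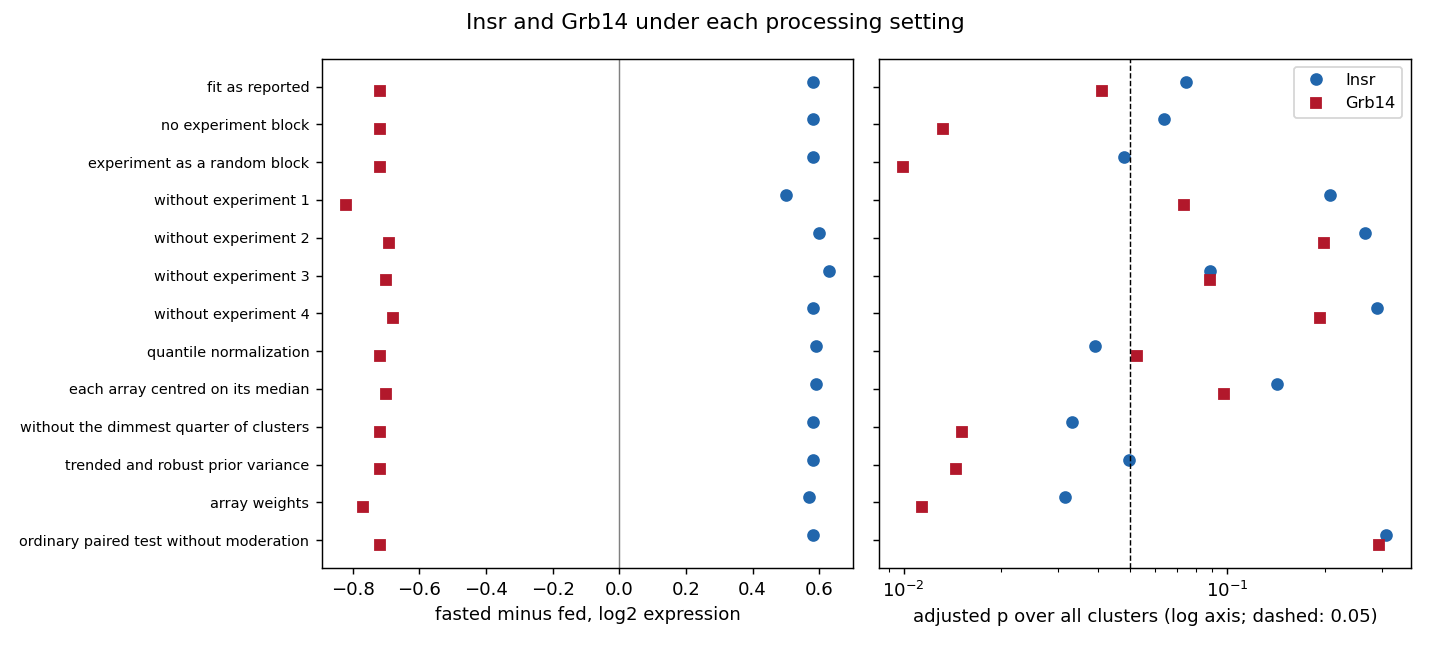
The difference of Insr and Grb14, fasted minus fed log2 expression (left), and its adjusted p over all clusters on a log axis (right), in the reported fit and in 12 alternative settings. The differences stay between 0.50 and 0.63 for Insr and between -0.82 and -0.68 for Grb14, while the adjusted p crosses the dashed line at 0.05 for both genes.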

How the data were processed

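The authors deposited log2 values, 1 per transcript cluster and array, made with RMA per the submitters' processing notes. RMA corrects background, normalises between arrays and summarises probes, and it compresses differences at low signal. The base of the log was read from the values, which ran from 1.08 to 13.3. SPIA amplification by a NuGEN kit and biotin labelling preceded hybridisation, per the labels' protocols, and amplification can distort transcript proportions. Gene symbols came from the platform annotation: 14996 clusters had 1 symbol, 1019 several and 740 none, and all 8 genes matched RefSeq by Entrez number and symbol. There were 0 missing values.

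Groups and experiment numbers came from sample titles. Because the series text sets each experiment's fasted level against its fed level, experiment was a fixed block in limma 3.58.1 (R 4.3.3; 3 residual and 4.84 prior degrees of freedom). In the values the pairing was weak: paired arrays' deviations from group means correlated at -0.18, 0.05, -0.14 and 0.44. P-values set the mean fasted minus fed difference of pools against a spread. That spread combined the gene's own variation over 4 experiments with the variation typical of all clusters. The SE of a gene is therefore not its own spread alone. The fit was tested on simulated data, where it missed most differences of a size between those of Foxo1 and Insr. It made more false calls than the threshold allows where the simulated spreads were the moderated ones, and close to that share where they came from the fitted prior. The alternatives are given in the closing section. No filter on low values was used.

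The genes and lists were chosen with earlier results of these data known. Named genes are the 8 measured members, in each pathway list every gene past the threshold and the 3 with the smallest adjusted p, and the 3 genes nearest to Insr and to Grb14. Foxo4, Foxo6 and the cell type markers named are additions made after their values were seen.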

Additional observations from a re-analysis of the deposited data

Results flagged for a closer look

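In 80 groups of 4 arrays, those of 40 named genes, the array farthest from the others was compared with the spread of its group. Of these, 2 stood apart, and chance alone flags about 1 group in 20. The fed pool of experiment 4 had a Pik3ca level of 7.13, against 6.78 to 6.82 in the other fed pools. The fasted pool of experiment 4 had a Pnpla2 level of 9.67, against 9.10 to 9.20 in the other fasted pools. None of the groups of Insr, Irs1, Grb10, Grb14, Pik3r1, Akt1, Foxo1 or Foxo3 held such an array.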

How the results depend on the processing

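The 8 differences kept their sign in 95 of 96 refits, 12 settings for each gene; the exception was Akt1, which ran from -0.0044 without experiment 3 to 0.12 without experiment 2, against 0.05 with all experiments. Leaving out an experiment gave between 16 and 94 called clusters, against 137, and 0 of the 8 genes passed in any of these 4 refits. Without experiment 1 the count was 16, without experiment 2 it was 37 and without experiment 4 it was 31; each leaves fewer arrays. Centring each array on its median gave 45 clusters and 0 of the 8 genes, and the paired test without moderation 1 cluster and 0 of the 8, with 1625 clusters at an unadjusted p under 0.05. Experiment as a random block gave 229 clusters, leaving out the dimmest 25% of clusters, where fewer are tested, 240, a trended and robust prior 216 and array weights 265. In these 4 settings 2 of the 8 genes passed, Insr and Grb14. Quantile normalization gave 143 clusters, and of the 8 genes Insr passed and Grb14 did not. Except where a count says so, the cause was not tested. The fit without the experiment block, in which the pairing is ignored, gave 185 clusters and the same 1 of the 8 genes, Grb14; among the other 32 named genes it ended the calls of Bcl6 (adjusted p = 0.0592) and Ston2, and it added Eci2 (0.0411). Those 32 genes kept their sign in all of 383 refits; 53 of these ended a call and 15 added one. Other clusters with the symbol of a measured gene were to be an alternative, but the 8 genes had 1 cluster each.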
